A study of Mus musculus with 4 samples.

Results

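The cells described here are epithelial cells of mouse mammary tumours that carried transcripts of Foxi1, of Atp6v1b1 or of both. A cell barcode was included when it held at least 1 UMI (unique molecular identifier, 1 counted transcript) of the epithelial genes Krt8, Krt18 and Epcam together and at most 1 UMI of C1qa, C1qb, Col3a1 and Cdh5 together. It also had to hold at least 2 UMIs of Foxi1 and Atp6v1b1 together. This gave 5312 Foxi1/Atp6v1b1 cells among 27908 epithelial barcodes and 36162 barcodes in all. They were compared, mouse by mouse, with the 16866 epithelial barcodes that held 0 UMIs of both genes, called zero-UMI epithelial cells below. Values of Foxi1 and Atp6v1b1 thus chose the cells, and their levels in them are a description.

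All samples were tumours of female mice aged 13 to 14 weeks that carried MMTV-PyMT, K14Cre and Rosa-tdTomato on an FVB background. MMTV-PyMT expresses the polyoma middle T oncogene from a mammary tumour virus promoter, K14Cre expresses Cre from a human keratin 14 promoter, and Rosa-tdTomato is a fluorescent reporter switched on by Cre. Tumour 1 was collected from multiple mammary glands of mouse 1, tumour 2 from an inguinal gland of mouse 2, and mouse 3 gave tumour 3 (thoracic gland) and tumour 4 (inguinal gland). There was no control group of mice, so the comparisons are between cells of the same animals and the 3 mice are the replicates. The tissue was digested with enzymes, red blood cells were lysed and dead cells were taken out on a magnetic column; no sort was made. The 4 libraries held 8434 to 9580 barcodes with a median of 1922.5 to 3281 UMIs each. A total of 623 barcode sequences occurred in more than 1 library, and 12 of them marked Foxi1/Atp6v1b1 cells in more than 1 library, but 0 of the 631 pairs of shared barcodes had the same total of UMIs.

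Foxi1 is a forkhead transcription factor. In the mouse kidney and inner ear it is required for cells that secrete protons or bicarbonate, and in the airway it marks ionocytes, which are rare cells rich in ion channels. Such cells carry many copies of the vacuolar proton pump (V-ATPase), which is made of a V1 part that splits ATP and a membrane part, V0, that conducts protons. Atp6v1b1 encodes the B1 form of a V1 subunit and is known as a target of Foxi1 in those tissues, while Atp6v1b2 encodes the B2 form found in most cells.

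The sequences directly before the starts of 5 genes are shown because Atp6v1b1 and Foxi1 define the cells, Tspan8 is a marker of the working label, and Tfcp2l1 and Cck were among the genes with the largest differences. Each is the 150 bases before the RefSeq start, in GRCm38.p6, printed along the gene's own strand. Capitals mark the forkhead core motif TGTTTAC or its reverse complement. Atp6v1b1 lies on the plus strand (chr6:83742867-83743016), Foxi1 on the minus strand (chr11:34208090-34208239), Tspan8 on the plus strand (chr10:115817134-115817283), Cck on the minus strand (chr9:121495695-121495844) and Tfcp2l1 on the plus strand (chr1:118627795-118627944).
Atp6v1b1: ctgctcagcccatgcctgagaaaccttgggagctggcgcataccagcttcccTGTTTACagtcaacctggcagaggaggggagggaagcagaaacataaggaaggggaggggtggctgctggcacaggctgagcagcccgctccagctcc
Foxi1: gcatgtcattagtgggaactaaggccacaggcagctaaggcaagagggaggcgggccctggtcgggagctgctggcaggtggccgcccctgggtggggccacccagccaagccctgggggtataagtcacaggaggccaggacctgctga
Tspan8: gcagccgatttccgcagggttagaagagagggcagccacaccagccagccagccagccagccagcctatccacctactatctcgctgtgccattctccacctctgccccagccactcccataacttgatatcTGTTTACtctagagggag
Cck: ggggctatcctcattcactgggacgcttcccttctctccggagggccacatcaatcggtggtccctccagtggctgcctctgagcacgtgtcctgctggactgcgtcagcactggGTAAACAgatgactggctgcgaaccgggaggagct
Tfcp2l1: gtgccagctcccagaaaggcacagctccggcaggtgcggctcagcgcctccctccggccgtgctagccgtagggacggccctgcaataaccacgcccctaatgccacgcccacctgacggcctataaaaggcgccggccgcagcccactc

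The motif began 98 bases before the start of Atp6v1b1, 18 bases before that of Tspan8 and, as its reverse complement, 35 bases before that of Cck. RefSeq windows of 300 bases, 250 before and 50 after the start, were at hand for 72 of 112 genes followed here, and 3 of them (4.17%) held the motif on either strand. All 3 are among the sequences printed above, so the printed set shows the motif far more often than the genes followed. Among all genes with such a window the share was 4.05%, which is close to it. Of the genes higher in Foxi1/Atp6v1b1 cells 3.63% held it, of those lower 3.02% and of those that did not pass the test 3.03%.

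Foxi1/Atp6v1b1 cells were found in every tumour and were frequent rather than rare. They made up 5.67% of the epithelial barcodes of tumour 1 (375 cells; exact Clopper-Pearson 95% interval 5.12 to 6.25), 35.9% in tumour 2 (3072 cells; 34.9 to 37.0), 12.7% in tumour 3 (691 cells; 11.8 to 13.6) and 16.1% in tumour 4 (1174 cells; 15.2 to 16.9). Per mouse the share was 18.7% ± 15.5 (SD, n = 3). Tumour 2 stood highest and held 3072 of the 5312 cells. Such intervals cover counting error only. A count of 0 UMIs does not show that a cell lacked transcripts of both genes. In tumour 2, 3166 epithelial barcodes held 0 UMIs of both genes, 2311 held 1 and 1406 held 2. Whether Foxi1/Atp6v1b1 cells and zero-UMI epithelial cells are separate kinds of cell was not tested.

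The share depended on the number of UMIs read per cell. After every barcode was thinned to 1500 UMIs, with shallower barcodes left out, it was 3.29%, 11.5%, 3.99% and 5.24% in tumours 1 to 4, and tumour 2 stayed highest. The thinning left out 1748, 0, 198 and 484 epithelial barcodes of tumours 1 to 4. Foxi1/Atp6v1b1 cells had a median of 2785, 4312, 4227 and 3872.5 UMIs in tumours 1 to 4, against 2095, 2855.5, 3151 and 2530 in zero-UMI epithelial cells. Their median share of mitochondrial UMIs was 0.708% to 0.929%, against 0.709% to 0.972% in zero-UMI epithelial cells.

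Barcodes of other cell types rarely reached the threshold. Among barcodes with at least 2 UMIs of C1qa, C1qb, Col3a1 and Cdh5 and 0 UMIs of the epithelial genes, which should lack both genes, those with at least 2 UMIs of Foxi1 and Atp6v1b1 numbered 1 of 851, 2 of 391, 0 of 1381 and 3 of 856 in tumours 1 to 4. Their median depth was 1306, 2419, 2323 and 2090 UMIs. Over all epithelial barcodes Foxi1 stood at 52.9, 144, 49.8 and 75.1 CPM (UMIs of the gene per 1000000 UMIs of the summed cells) in tumours 1 to 4, against 3.99, 7.58, 1.96 and 3.55 CPM in those other barcodes. Atp6v1b1 stood at 57.0, 192, 83.8 and 117 CPM, against 5.58, 11.4, 3.09 and 10.7 CPM.

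**Figure D1:**
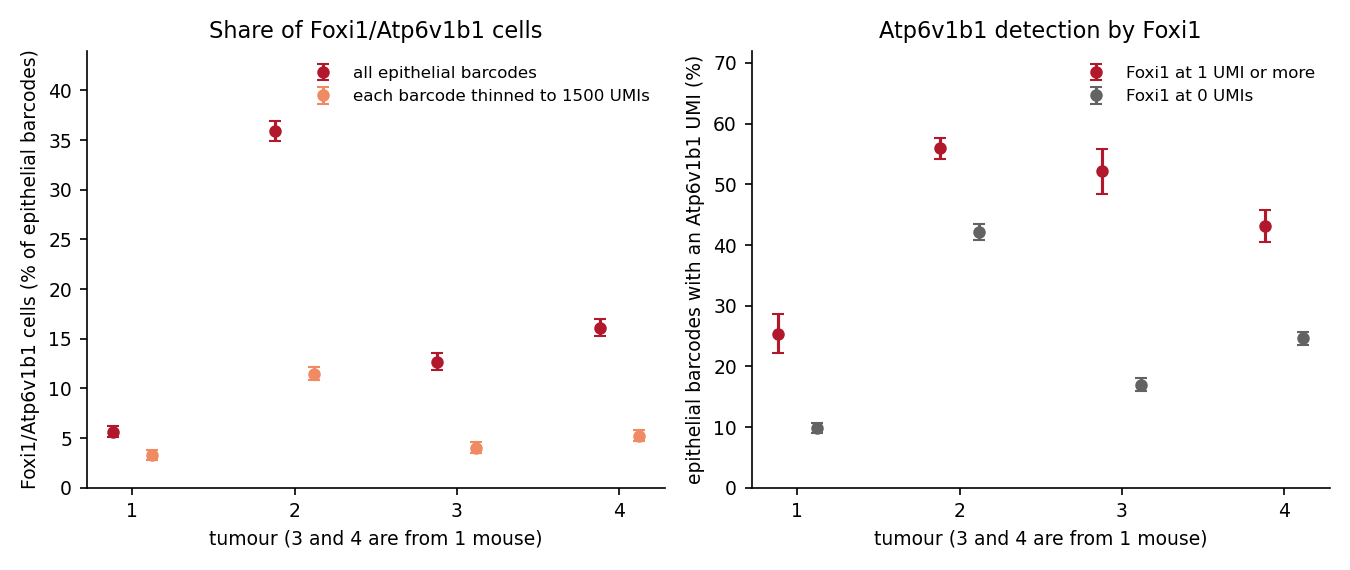
Share of Foxi1/Atp6v1b1 cells among epithelial barcodes of each tumour, before and after thinning to 1500 UMIs (left), and share of epithelial barcodes with an Atp6v1b1 UMI among those with and without a Foxi1 UMI (right). Points are percentages and bars are exact 95% intervals of counting error. Tumour 2 stands highest in the left panel with 35.9%, and in the right panel barcodes with Foxi1 stand above those without it in all 4 tumours.

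Atp6v1b1 was found more often in barcodes with Foxi1 than in those without it. In Foxi1/Atp6v1b1 cells Foxi1 stood at 365, 266, 231 and 240 CPM in tumours 1 to 4 and Atp6v1b1 at 398, 341, 345 and 354 CPM, against 0 in zero-UMI epithelial cells by the rule. Of the Foxi1/Atp6v1b1 cells 48.5%, 56.1%, 53.4% and 51.2% in tumours 1 to 4 held both genes, 23.5%, 15.3%, 12.9% and 15.7% held Foxi1 only, and 28.0%, 28.7%, 33.7% and 33.1% held Atp6v1b1 only. Since the rule used the sum of both, their relation was measured in all epithelial barcodes. An Atp6v1b1 UMI was found in 25.3%, 55.9%, 52.1% and 43.1% of barcodes with Foxi1 in tumours 1 to 4, against 9.85%, 42.1%, 16.9% and 24.6% of barcodes without it. After thinning the shares were 17.5%, 29.1%, 27.3% and 22.2% with Foxi1, against 6.92%, 25.0%, 10.4% and 16.0% without it. Barcodes with Foxi1 were above those without it in 4 of 4 tumours, and the gap was narrowest in tumour 2.

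Each gene was then tested in cells chosen by the other one alone, on UMIs summed per mouse. With Foxi1 as the choosing gene, Atp6v1b1 (ENSMUSG00000006269, GRCm38 chromosome 6, 83742990 to 83758855, plus strand) stood at 115, 205 and 174 CPM in the chosen cells of mice 1, 2 and 3, against 48.3, 181 and 84.1 CPM in epithelial barcodes with 0 Foxi1. It was higher in 3 of 3 mice, least so in mouse 2. The log2 fold change was 0.73 (SE 0.13), with an adjusted p of 0.00347 in edgeR's quasi-likelihood test with Benjamini-Hochberg adjustment over 15153 genes. In that contrast 1.64% of the genes tested were called higher, 2.79% lower and 4.43% either way. With Atp6v1b1 as the choosing gene, Foxi1 (ENSMUSG00000047861, chromosome 11, 34204338 to 34208089, minus strand) stood at 104, 158 and 109 CPM, against 45.1, 127 and 45.3 CPM in barcodes with 0 Atp6v1b1. The log2 fold change was 0.83 (SE 0.13), with an adjusted p of 0.0013 in the same edgeR test, and 7.76% of the genes tested were called higher there, 10.1% lower and 17.8% either way. Leaving out 1 mouse at a time gave log2 fold changes of 0.57 to 1.07 for Atp6v1b1 and 0.60 to 1.18 for Foxi1. Each kept its call without any 1 mouse and was largest without mouse 2. DESeq2 gave Atp6v1b1 a log2 fold change of 0.78 with an adjusted p of 0.295.

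The 3 further markers of the working label were higher in Foxi1/Atp6v1b1 cells of every tumour. They were picked with results of these data known, so they were given no test. Clic6 (ENSMUSG00000022949, chromosome 16, 92485736 to 92541243, plus strand), a chloride intracellular channel protein, stood at 124, 183, 159 and 156 CPM in tumours 1 to 4, against 37.8, 106, 35.5 and 61.5 CPM in zero-UMI epithelial cells. The groups did not overlap for Clic6. Car12, a carbonic anhydrase of the cell membrane, stood at 55.5, 99.8, 84.2 and 70.1 CPM, against 40.8, 73.2, 35.5 and 43.3 CPM. Tspan8, a tetraspanin of the cell surface, stood at 71.2, 305, 115 and 137 CPM, against 23.8, 264, 29.6 and 115 CPM. For Car12 and Tspan8 the groups overlapped across tumours. Zero-UMI epithelial cells of tumour 2 stood above Foxi1/Atp6v1b1 cells of tumours 1 and 4 for Car12 and of tumours 1, 3 and 4 for Tspan8, and those of tumour 4 also stood above tumour 1 for Tspan8. A Clic6 UMI was found in 29.3%, 53.1%, 46.2% and 42.7% of Foxi1/Atp6v1b1 cells, against 8.03%, 27.7%, 10.3% and 15.7% of zero-UMI epithelial cells and 0.235% to 2.05% of the non-epithelial barcodes.

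Genes that define ionocytes or kidney intercalated cells gave a mixed picture. In the 5312 cells Foxi1 had 6825 UMIs in 3704 cells, and Tfcp2l1, a transcription factor of intercalated cells, had 846 UMIs in 673 cells, against 578 UMIs in the 16866 zero-UMI epithelial cells. Several others were rare but, pooled over the tumours, had more UMIs in Foxi1/Atp6v1b1 cells than in the more numerous zero-UMI epithelial cells. Atp6v0a4, a V0 subunit gene of intercalated cells, had 84 UMIs in 70 Foxi1/Atp6v1b1 cells, against 49 UMIs in zero-UMI epithelial cells. The V1 subunit gene Atp6v1g3 had 22 UMIs in 7 cells, against 2 UMIs, and the transcription factor gene Hmx2 had 16 UMIs in 3 cells, against 2 UMIs. Ascl3, a transcription factor of airway ionocytes, had 10 UMIs in 7 cells, against 4 UMIs, and Slc26a4, an anion exchanger gene of intercalated cells, had 9 UMIs in 8 cells, against 1 UMI. Tumour 2, which held 3072 of the 5312 cells, gave 75 of these 84 Atp6v0a4 UMIs and 39 of the 49 in zero-UMI epithelial cells. It also gave all 16 UMIs of Hmx2, all 9 of Slc26a4 and 9 of the 10 of Ascl3. The pooled counts of these 4 genes thus rest largely on 1 library. Apart from Atp6v0a4, these rare genes did not pass the count filter and were not tested. The chloride channel gene Cftr had 3 UMIs in 3 cells, against 4 UMIs. Foxi3, Dmrt2 and the anion exchanger gene Slc4a1 had 0 UMIs in Foxi1/Atp6v1b1 cells and 1 UMI each in zero-UMI epithelial cells. A count of 0 allows a share of cells with a UMI of up to 0.0565%. Foxi2, Hmx3, the ammonia transporter gene Rhcg and the carbonic anhydrase gene Car4 had 0 UMIs in all 36162 barcodes, so their absence says nothing particular of these cells. Gata3 and Kit, regulators that also mark luminal mammary cells, were common. Gata3 had 5591 UMIs in 3008 cells, against 7429 UMIs, and Kit had 1719 UMIs in 1321 cells, against 1740 UMIs. Foxi1 was present by the rule. With Tfcp2l1, Gata3 and Kit detected and the other markers named above rare or at 0, the cells are named by their genes here and not as ionocytes.

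**Figure D2:**
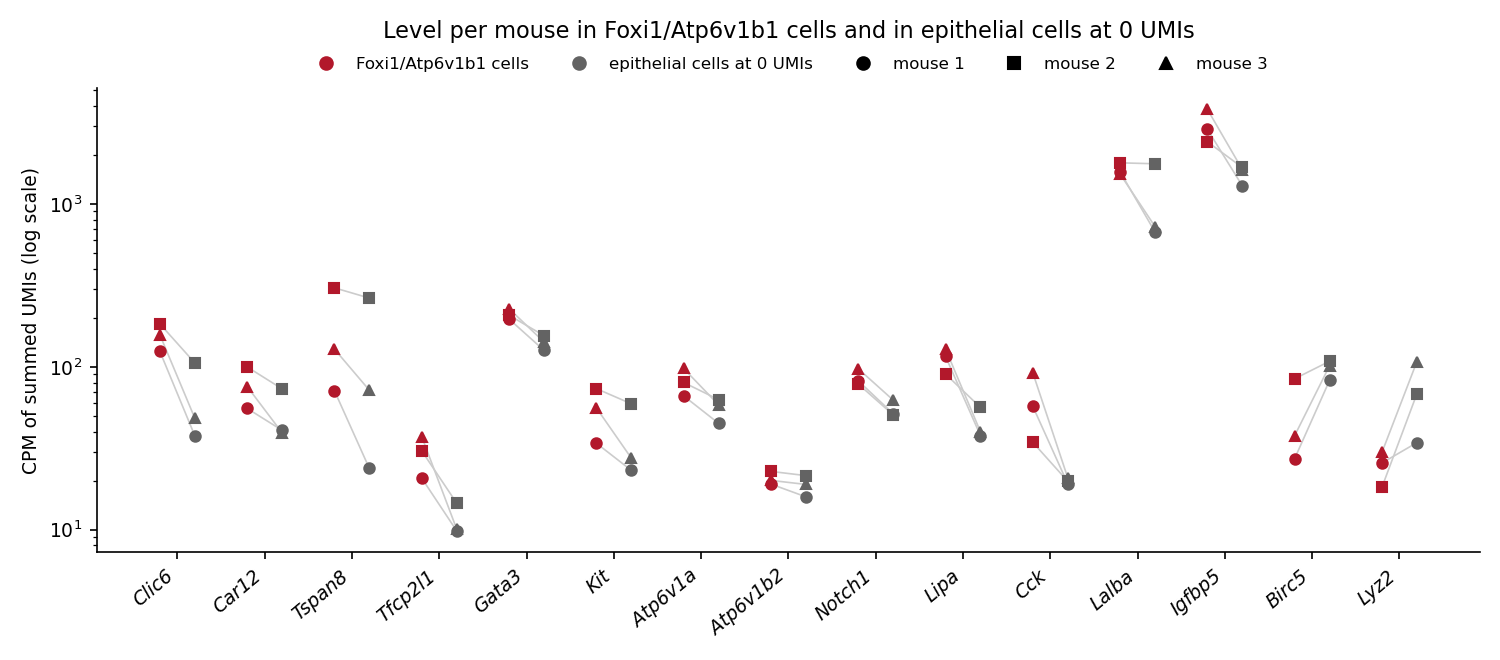
Level of 15 genes in each mouse, as CPM of summed UMIs on a log scale, in Foxi1/Atp6v1b1 cells (red, left of each pair) and zero-UMI epithelial cells (grey, right). Lines join the same mouse. Clic6, Tfcp2l1, Lipa and Cck stand higher in Foxi1/Atp6v1b1 cells of all 3 mice, Atp6v1b2 differs little, and Birc5 and Lyz2 stand lower.

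Across all genes, raw UMIs were summed per mouse and group of cells, with both tumours of mouse 3 together, and tested in edgeR with mouse as a block. Of 14423 genes tested, 897 were higher in Foxi1/Atp6v1b1 cells (6.22%) and 1185 were lower (8.22%), 14.4% in either direction, at an adjusted p under 0.05. The median log2 fold change of all genes was -0.00023. In 89 of the higher genes the log2 fold change was above 1, and in 259 of the lower genes it was below -1. The counts changed with the mice included. Without mouse 2, which gave most of the cells, 1393 genes were higher and 1854 lower, without mouse 1 the counts were 207 and 280, and without mouse 3 they were 190 and 319. With every barcode thinned to 1500 UMIs before the cells were chosen, 172 genes were higher and 233 lower, 135 and 197 of them shared with the counts above. Thinning left 149, 963, 196 and 341 Foxi1/Atp6v1b1 cells in tumours 1 to 4. In another fit, zero-UMI epithelial cells were limited to percentiles 25 to 75 of the depth of Foxi1/Atp6v1b1 cells in each tumour. It gave 1083 genes higher and 1308 lower, 812 and 1020 of them shared with the fit of all cells.

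Of the transcription factor and signalling genes that mark ionocytes or intercalated cells, 5 could be tested and 3 were higher, with a median log2 fold change of 0.51. Tfcp2l1 (ENSMUSG00000026380, chromosome 1, 118627945 to 118685168, plus strand), a transcription factor that acts with Foxi1 in the mouse kidney collecting duct, stood at 20.7, 30.5 and 37.2 CPM in Foxi1/Atp6v1b1 cells of mice 1, 2 and 3, against 9.84, 14.6 and 10.1 CPM in zero-UMI epithelial cells. The groups did not overlap. Its log2 fold change was 1.37 (SE 0.16) with an adjusted p of 0.000711 in edgeR's test, and it kept its call without any 1 mouse. Gata3, a transcription factor of luminal mammary cells as well, stood at 196, 207 and 227 CPM, against 126, 155 and 142 CPM, with a log2 fold change of 0.51 (SE 0.07, edgeR adjusted p = 0.00214). Kit, a receptor tyrosine kinase that also marks luminal progenitor cells, stood at 34.0, 73.4 and 56.0 CPM, against 23.1, 59.3 and 27.5 CPM. The groups overlapped for Kit, which was higher in 3 of 3 mice with a log2 fold change of 0.58 (SE 0.12, edgeR adjusted p = 0.0126). Its adjusted p was 0.0701 without mouse 1 and 0.209 without mouse 3. Stap1 and Prox1 did not pass, with log2 fold changes of 0.15 and 0.03 and edgeR adjusted p-values of 0.853 and 0.964. Tfcp2l1 was detected in 6.13%, 12.7%, 14.5% and 13.7% of Foxi1/Atp6v1b1 cells of tumours 1 to 4, against 2.26%, 4.26%, 2.80% and 3.73% of zero-UMI epithelial cells.

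Of 10 V1 subunit genes tested, 1 was higher and 0 lower, and the median log2 fold change was 0.06. Over all genes 6.22% were higher, so 1 of 10 is no result about these genes. That gene was Atp6v1a, which encodes the catalytic A subunit and stood at 66.3, 80.1 and 97.6 CPM in Foxi1/Atp6v1b1 cells of mice 1, 2 and 3, against 45.0, 62.9 and 58.4 CPM in zero-UMI epithelial cells. Its log2 fold change was 0.48 (SE 0.09, edgeR adjusted p = 0.00719), and the adjusted p was 0.0565 without mouse 1, 0.1 without mouse 3 and 0.571 with thinned barcodes. The widespread form Atp6v1b2 stood at 19.0, 22.8 and 20.1 CPM, against 15.9, 21.5 and 19.0 CPM, and did not pass (log2 fold change 0.05, SE 0.10, edgeR adjusted p = 0.806). The smallest log2 fold change among V1 genes was -0.15, of Atp6v1c1, whose edgeR adjusted p was 0.369.

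Of 11 V0 and accessory genes 2 were higher and 0 lower, with a median log2 fold change of 0.28. Beside 6.22% higher over all genes, 2 of 11 is too few for a result about the list. Without mouse 2 the counts were 6 higher and 1 lower of 10 V0 genes and 2 higher of 10 V1 genes. Without mouse 1, and without mouse 3, edgeR called 0 genes of either list, with 1 V1 and 2 V0 genes higher at an unadjusted p under 0.05. Atp6v0c, the proton-conducting ring subunit, stood at 599, 659 and 670.0 CPM in Foxi1/Atp6v1b1 cells, against 423, 585 and 442 CPM in zero-UMI epithelial cells (log2 fold change 0.35, SE 0.08, edgeR adjusted p = 0.0141). Tcirg1, which encodes the a3 subunit, had a log2 fold change of 0.33 and an edgeR adjusted p of 0.0482. Without mouse 1 the adjusted p-values were 0.125 for Atp6v0c and 0.131 for Tcirg1, and without mouse 3 they were 0.196 and 0.563. Atp6v0a4, the a4 subunit of intercalated cells, stood at 0, 4.67 and 1.01 CPM, against 0.0769, 3.60 and 0.311 CPM. It had the largest log2 fold change of the list, 0.58, but did not pass (edgeR adjusted p = 0.269), and Atp6v0e2 had the smallest, -0.14 (adjusted p = 0.651).

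Of 13 acid-base transport genes tested 1 was higher and 1 lower, with a median log2 fold change of 0.08, a share close to the 14.4% that passed over all genes. Without mouse 2 the list had 4 genes higher and 0 lower, with a median of 0.31. Without mouse 1 edgeR called 0, with 4 higher and 1 lower at an unadjusted p under 0.05, and without mouse 3 it called 0, with 0 higher and 1 lower. Slc16a3, a lactate transporter, was lower with a log2 fold change of -1.84 (edgeR adjusted p = 0.0137), at 0, 0.872 and 0.224 CPM, against 0.692, 2.58 and 1.24 CPM. Its adjusted p was 0.0513 without mouse 1 and 0.1 without mouse 3. Slc4a4, a bicarbonate cotransporter, had the largest log2 fold change of the list, 0.60, and did not pass (edgeR adjusted p = 0.0892).

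Among 25 channel and ion transporter genes 8 were higher and 2 lower, against 6.22% and 8.22% of all genes. The number lower, 2 of 25, is close to that share. The median log2 fold change was 0.12. The number higher was 2 without mouse 1, 1 without mouse 3, 4 with DESeq2 and 5 with thinned barcodes. Clic3, a relative of Clic6, had the largest difference. It stood at 7.46, 4.67 and 18.2 CPM in Foxi1/Atp6v1b1 cells of mice 1, 2 and 3, against 2.54, 2.40 and 2.15 CPM in zero-UMI epithelial cells, with a log2 fold change of 2.18 (SE 0.34, edgeR adjusted p = 0.00286). The groups did not overlap, but its UMIs came from 116 of the 5312 cells, and without mouse 3 the adjusted p was 0.0798. Ano1, a calcium-gated chloride channel, had a log2 fold change of 0.78 (edgeR adjusted p = 0.0015), and Scnn1b, the beta subunit of the epithelial sodium channel, one of 1.26 (edgeR adjusted p = 0.0112; 0.0651 without mouse 1 and 0.0729 without mouse 3). Ano1 and Scnn1b were named after their values were seen. Fxyd5, which encodes a regulator of the sodium pump, was lowest with a log2 fold change of -1.37 (edgeR adjusted p = 0.000297). The other gene that was lower was its relative Fxyd2, at -1.20 (edgeR adjusted p = 0.0289; 0.123 without mouse 1), also named after its value was seen.

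**Figure D3:**
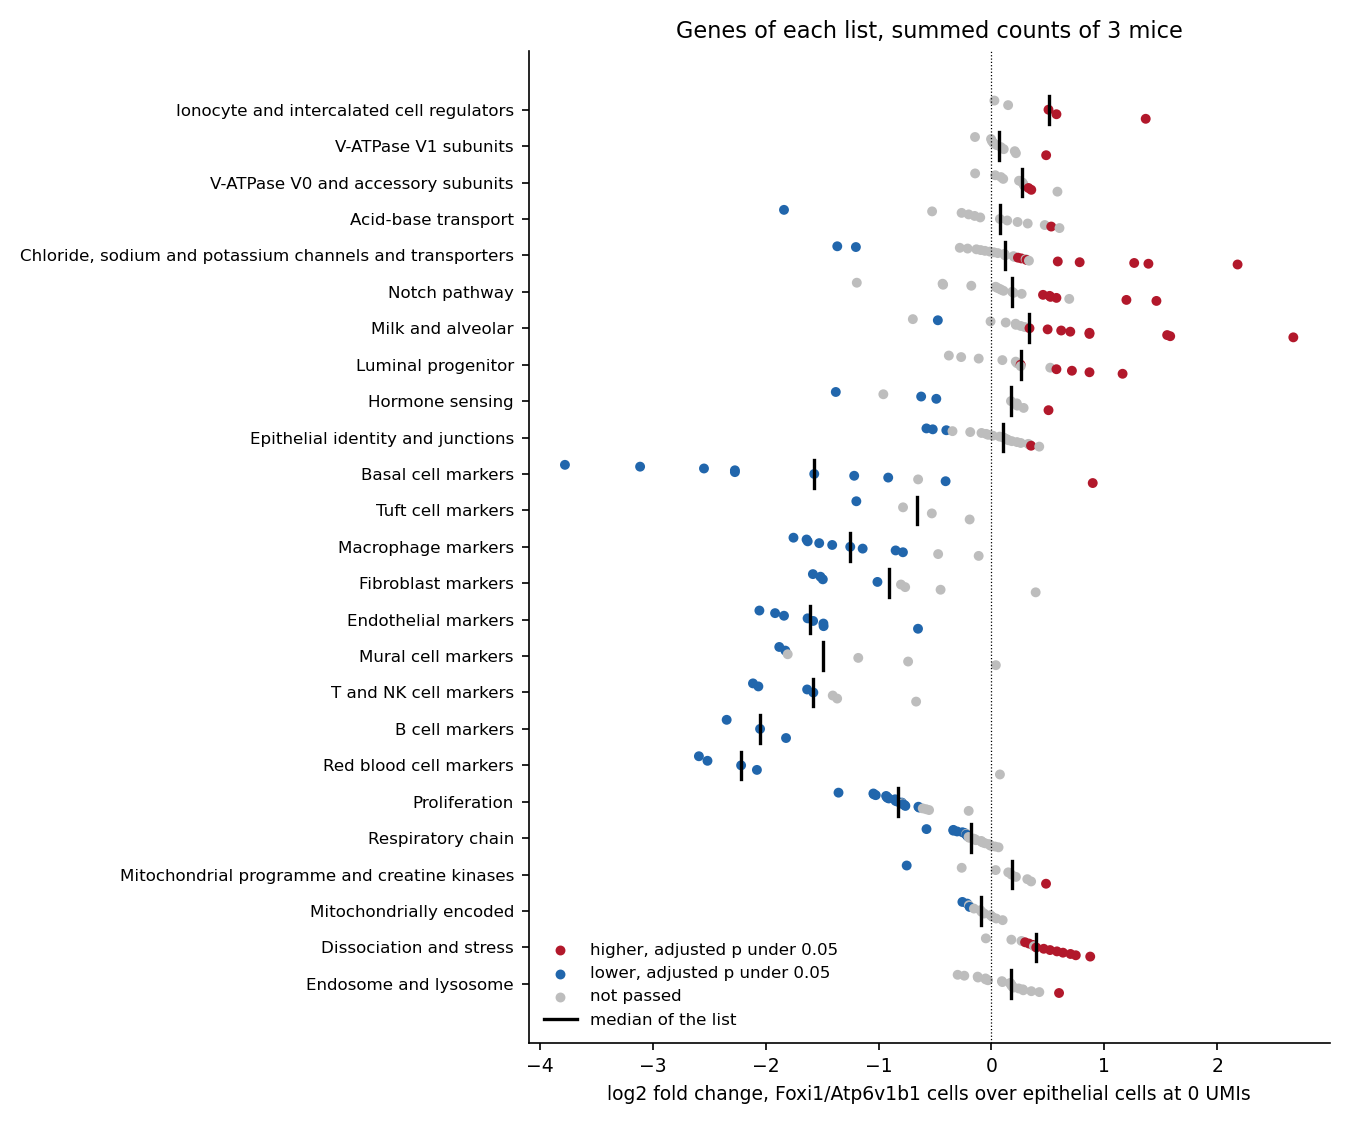
Log2 fold change of each tested gene of 25 gene lists, Foxi1/Atp6v1b1 cells over zero-UMI epithelial cells, from summed counts of 3 mice. Red and blue points passed the test as higher and lower, grey points did not pass, and black lines are the medians of the lists. Basal, stromal, immune and red blood cell lists have medians left of 0, and the milk, Notch and stress lists hold genes to the right.

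Genes of milk production that passed the test were, with 1 exception, higher in Foxi1/Atp6v1b1 cells. Of 17 milk and alveolar genes 9 were higher and 1 lower, against 6.22% and 8.22% of all genes. The median log2 fold change was 0.34. The number higher was 2 without mouse 1, 14 without mouse 2 and 6 without mouse 3. The summed level of 18 milk and alveolar genes was 44839, 33509 and 28850 CPM in Foxi1/Atp6v1b1 cells of mice 1, 2 and 3. It was 34454, 36313 and 20008 CPM in zero-UMI epithelial cells, so mouse 2 went the other way. Lalba, which encodes alpha-lactalbumin, stood at 1572, 1785 and 1523 CPM in Foxi1/Atp6v1b1 cells of mice 1, 2 and 3, against 672, 1762 and 726 CPM in zero-UMI epithelial cells. Mice 1 and 3 differed and mouse 2 was high in both groups, so the groups overlapped (log2 fold change 0.70, SE 0.17, edgeR adjusted p = 0.0185; 0.189 without mouse 1 and 0.143 with DESeq2). Btn1a1, a protein of the milk fat globule membrane, stood at 63.0, 9.84 and 39.9 CPM, against 16.6, 6.08 and 10.4 CPM (log2 fold change 1.56, SE 0.19, edgeR adjusted p = 0.000933). Ltf, the lactoferrin gene, was higher with a log2 fold change of 0.87 (edgeR adjusted p = 0.00453), and its adjusted p was 0.0711 without mouse 1 and 0.411 with thinned barcodes. The gene that was lower was Wap, whey acidic protein, with a log2 fold change of -0.47 (edgeR adjusted p = 0.00472). Lalba, Ltf and Wap were named after their values were seen. Lpl, a lipase gene, had the smallest log2 fold change, -0.70, and did not pass (edgeR adjusted p = 0.149).

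Among the casein genes, Csn2 and Csn1s1 rested on few cells, while Csn3, the kappa-casein gene, had 183885 UMIs in 5079 of the 5312 cells. Csn3, named after its values were seen, did not pass (log2 fold change 0.30, edgeR adjusted p = 0.15). Csn2, the beta-casein gene (ENSMUSG00000063157, chromosome 5, 87692624 to 87699630, minus strand), had the largest log2 fold change among the genes named, 2.67 (SE 0.48, edgeR adjusted p = 0.00583). It stood at 117, 26.6 and 19.6 CPM in Foxi1/Atp6v1b1 cells of mice 1, 2 and 3, against 4.31, 2.30 and 9.20 CPM in zero-UMI epithelial cells. Its 743 UMIs lay in 34 of the 5312 cells, and the 10 cells with the most held 86.3% of them. In zero-UMI epithelial cells its 347 UMIs lay in 51 cells, with 68.6% in the 10 highest. Csn1s1, an alpha-casein gene, stood at 230, 25.8 and 51.9 CPM, against 29.3, 15.0 and 22.6 CPM (log2 fold change 1.58, edgeR adjusted p = 0.00634), and the 10 highest of its 276 cells held 44.9% of its UMIs. Without mouse 1 the log2 fold change was 1.89 for Csn2, with an adjusted p of 0.0546, and 0.98 for Csn1s1. Without the 8% of barcodes with the most UMIs they were 1.06 and 0.68, both still called. With DESeq2 the adjusted p of Csn1s1 was 0.0977.

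Other genes with large differences were spread over more cells. Cck, the gene of the hormone cholecystokinin, stood at 57.2, 34.4 and 91.9 CPM in Foxi1/Atp6v1b1 cells, against 19.2, 19.8 and 20.9 CPM in zero-UMI epithelial cells (log2 fold change 1.48, SE 0.20, edgeR adjusted p = 0.0014), and the groups did not overlap. Its 1440 UMIs lay in 746 cells, and the cell with the most held 0.972% of them. Lipa, the lysosomal acid lipase, stood at 116, 90.2 and 129 CPM, against 37.8, 56.3 and 40.0 CPM, without overlap (log2 fold change 1.23, SE 0.16, edgeR adjusted p = 0.00129). Lipa was detected in 28.0% to 41.0% of Foxi1/Atp6v1b1 cells, against 8.07% to 15.1% of zero-UMI epithelial cells and 11.8% to 20.5% of the non-epithelial barcodes. Chil1, a chitinase-like secreted protein, stood at 563, 827 and 1560 CPM, against 174, 728 and 605 CPM (log2 fold change 0.99, edgeR adjusted p = 0.00928; 0.11 without mouse 1 and 0.196 with DESeq2). Rb1, an inhibitor of cell cycle entry, stood at 34.8, 30.5 and 57.0 CPM, against 15.7, 16.9 and 21.2 CPM (log2 fold change 1.10, edgeR adjusted p = 0.000509; 0.346 with thinned barcodes). The remaining genes of the 15 highest were 4930469K13Rik with a log2 fold change of 2.29, the secreted protein gene Ccn5 with 1.31, the cadherin gene Cdhr1 with 1.26, Gm14207 with 1.25, Ralgapa2 with 1.12, Fcgbp with 1.12 and Klhdc7a with 1.01. Their edgeR adjusted p-values ran from 2.16e-06 to 0.0059, and without mouse 1 that of Cdhr1 was 0.0521. The gene 4930469K13Rik lies on chromosome 11, 33973961 to 34098554, minus strand, the same chromosome and strand as the choosing gene Foxi1. Whether its difference is separate from that of Foxi1 was not tested.

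Notch pathway genes, which direct luminal cell fate in the mammary gland, were higher where they passed. Of 19 tested 6 were higher and 0 lower, against 6.22% and 8.22% of all genes. The median log2 fold change was 0.18. The number higher was 2 without mouse 1 and 2 without mouse 3. Dll1, a Notch ligand, stood at 7.46, 28.0 and 12.4 CPM in Foxi1/Atp6v1b1 cells of mice 1, 2 and 3, against 1.69, 14.9 and 4.12 CPM in zero-UMI epithelial cells (log2 fold change 1.20, SE 0.17, edgeR adjusted p = 0.00195). It was higher in 3 of 3 mice, and the groups overlapped through mouse 2. The receptor gene Notch1 stood at 82.0, 78.4 and 97.3 CPM, against 51.5, 50.7 and 62.5 CPM, and the groups did not overlap (log2 fold change 0.58, SE 0.08, edgeR adjusted p = 0.00155). The target genes Hey2 and Hey1 had log2 fold changes of 1.46 and 0.46 (edgeR adjusted p = 0.0218 and 0.0143). Without mouse 1 their adjusted p-values were 0.068 and 0.0869, and without mouse 3 they were 0.153 and 0.196. The receptor gene Notch3 and the target gene Hes1 had log2 fold changes of 0.52 each (edgeR adjusted p = 0.0152 and 0.0168), and their adjusted p-values were 0.0613 and 0.083 without mouse 1 and 0.22 and 0.155 without mouse 3. The ligand gene Jag2 had the smallest log2 fold change, -1.19, and did not pass (edgeR adjusted p = 0.0572). Dll1, Notch1, Notch3, Hes1 and Hey1 were named after their values were seen. With thinned barcodes 1 of 11 Notch genes tested was higher, and Notch1 was not called (log2 fold change 0.23, adjusted p = 0.562).

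Luminal progenitor genes were higher in 5 of 13 tested and lower in 0, against 6.22% and 8.22% of all genes. The median log2 fold change was 0.26. The number higher was 1 without mouse 1, 9 without mouse 2 and 2 without mouse 3. The summed level of 14 luminal progenitor genes was 7150, 8590 and 8954 CPM in Foxi1/Atp6v1b1 cells of mice 1, 2 and 3. It was 7897, 8470 and 7678 CPM in zero-UMI epithelial cells, so mouse 1 went the other way. Itgb3, an integrin subunit, had the largest log2 fold change at 1.16 (edgeR adjusted p = 0.00926; 0.0694 without mouse 1 and 0.156 without mouse 3). Sox9, a transcription factor of progenitor cells and named after its value was seen, stood at 239, 326 and 366 CPM in Foxi1/Atp6v1b1 cells, against 134, 219 and 190.1 CPM in zero-UMI epithelial cells (log2 fold change 0.71, edgeR adjusted p = 0.000601). The others were Kit, Ltf and the transcription factor gene Ehf, the last at 0.26 (edgeR adjusted p = 0.0387; 0.185 without mouse 1 and 0.294 without mouse 3). The chemokine gene Cxcl1 was lowest at -0.38 and did not pass (edgeR adjusted p = 0.0536). Of 9 hormone-sensing genes 1 was higher, Gata3, and 3 were lower, with a median of 0.17. Beside 6.22% higher over all genes, 1 of 9 is no result about the list, and 3 of 9 lower stand beside 8.22%. Cited1, a co-regulator found in hormone receptor positive cells, was lowest with a log2 fold change of -1.38 (edgeR adjusted p = 0.0228; 0.0758 without mouse 1 and 0.089 without mouse 3). The surface protein genes Ly6a and Prom1 were at -0.62 and -0.49 (edgeR adjusted p = 0.0129 and 0.0265), with 0.0709 and 0.202 without mouse 3, and Prom1 also had 0.107 without mouse 1. Of 21 genes of epithelial identity and junctions 1 was higher and 3 were lower, with a median of 0.11. These counts are not far from the 6.22% higher and 8.22% lower over all genes, so they are no result about the list. The lowest was the claudin gene Cldn8 at -0.58 (edgeR adjusted p = 0.0304; 0.102 without mouse 1 and 0.284 without mouse 3), and Muc1 was highest at 0.42 without passing (0.0698). The claudin gene Cldn4 and the desmosome gene Perp were also lower, at -0.40 and -0.52 (edgeR adjusted p = 0.0148 and 0.0133), with 0.0629 and 0.104 without mouse 1 and 0.215 and 0.0874 without mouse 3. The gene that was higher was the epithelial transcription factor Grhl2, at 0.35 (edgeR adjusted p = 0.0494; 0.0955 without mouse 1 and 0.527 without mouse 3). Ehf, Ly6a, Prom1, Cldn4, Perp and Grhl2 were named after their values were seen.

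Most proliferation genes were lower. Of 23 tested 18 were lower and 0 higher, against 8.22% and 6.22% of all genes. The median log2 fold change was -0.83. Rrm2, a subunit of the enzyme that makes deoxynucleotides, stood at 4.97, 15.0 and 9.98 CPM in Foxi1/Atp6v1b1 cells of mice 1, 2 and 3, against 22.8, 26.9 and 32.1 CPM in zero-UMI epithelial cells, and the groups did not overlap (log2 fold change -1.35, SE 0.18, edgeR adjusted p = 0.00137). Birc5, a mitotic gene named after its value was seen, stood at 27.3, 84.5 and 37.8 CPM, against 82.6, 108 and 102 CPM (log2 fold change -1.05, edgeR adjusted p = 0.00604; 0.0677 without mouse 1). Mice 1 and 3 differed most and mouse 2 least, and the groups overlapped. Ccnd1, cyclin D1, had the smallest difference of the list at -0.20 and did not pass (edgeR adjusted p = 0.126). Without mouse 1 the list had 6 genes lower, without mouse 3 it had 8, and with thinned barcodes 12 of 22.

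Of 24 respiratory chain genes 9 were lower and 0 higher, against 8.22% and 6.22% of all genes. The median log2 fold change was -0.18. Airway and kidney ionocytes are known for many mitochondria. Cycs, cytochrome c, was lowest with a log2 fold change of -0.58 (edgeR adjusted p = 0.00149), at 199, 192 and 213 CPM in Foxi1/Atp6v1b1 cells, against 315, 251 and 303 CPM in zero-UMI epithelial cells. The groups did not overlap for Cycs. Cox4i1 had the largest log2 fold change, 0.06, and did not pass (edgeR adjusted p = 0.501). Of 12 genes of the mitochondrial genome 3 were lower, against 8.22% of all genes, and 0 higher, with a median of -0.09. The lowest was mt-Atp6 at -0.26 (edgeR adjusted p = 0.042; 0.229 without mouse 1 and 0.278 without mouse 3), followed by mt-Nd1 at -0.21 and mt-Cytb at -0.19, both named after their values were seen, and the highest was mt-Nd4l at 0.10 (0.777). Without mouse 1 mt-Nd1 and mt-Cytb had adjusted p-values of 0.248 and 0.288, and without mouse 3 of 0.351 and 0.413. Of 9 genes of the mitochondrial programme and creatine kinases 1 was higher, Ckmt1 at 0.48 (edgeR adjusted p = 0.016; 0.0884 without mouse 1 and 0.166 without mouse 3), and 1 was lower, Ckb at -0.75 (0.0236; 0.343 without mouse 3), with a median of 0.18. With 14.4% of all genes called either way, 1 higher and 1 lower of 9 is no result about this list. Without mouse 1, without mouse 3 and with thinned barcodes 1 respiratory chain gene was lower, and with DESeq2 3 were.

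Of 15 genes known to respond to tissue dissociation and stress 11 were higher and 0 lower, against 6.22% and 8.22% of all genes. The median log2 fold change was 0.40. The number higher was 5 without mouse 1, 7 without mouse 3 and 5 with thinned barcodes. Egr1, an immediate early transcription factor, stood at 176, 223 and 262 CPM in Foxi1/Atp6v1b1 cells, against 74.3, 149 and 124 CPM in zero-UMI epithelial cells, without overlap (log2 fold change 0.88, SE 0.10, edgeR adjusted p = 0.000778). Hspb1 was lowest at -0.05 and did not pass (edgeR adjusted p = 0.799). The summed level of the list was 3485, 4800 and 4911 CPM in Foxi1/Atp6v1b1 cells of mice 1, 2 and 3, against 2309, 3965 and 3152 CPM in zero-UMI epithelial cells. Its part in the other differences was not tested. Of 21 endosome and lysosome genes 1 was higher, below the 6.22% over all genes, and 0 were lower, with a median of 0.17 and the lowest value at -0.30 for Gusb (edgeR adjusted p = 0.218). Without mouse 2, 6 of the 21 were higher and 1 lower.

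Markers of other cell types were mostly lower in Foxi1/Atp6v1b1 cells. Of 11 basal cell markers 9 were lower and 1 higher, against 8.22% and 6.22% of all genes. The median log2 fold change was -1.57. Krt17, a basal keratin, stood at 0, 2.37 and 5.38 CPM in Foxi1/Atp6v1b1 cells, against 9.77, 54.5 and 38.2 CPM in zero-UMI epithelial cells (log2 fold change -3.78, SE 0.26, edgeR adjusted p = 2.61e-05). Krt5 and Acta2 had log2 fold changes of -3.11 and -2.55 (edgeR adjusted p = 9.94e-06 and 0.000103). Igfbp5, a secreted binding protein of insulin-like growth factors, was the member that was higher, at 2864, 2404 and 3802 CPM, against 1290.4, 1672 and 1624 CPM (log2 fold change 0.90, SE 0.11, edgeR adjusted p = 0.000757), and it was found in 93.9% of Foxi1/Atp6v1b1 cells, against 75.2% of zero-UMI epithelial cells. Krt14, the mouse counterpart of the human gene whose promoter drives the Cre transgene, had a log2 fold change of -0.41 (edgeR adjusted p = 0.0399; 0.0572 without mouse 1 and 0.0889 without mouse 3). Its log2 fold change was 0.47 (adjusted p = 0.0644) once barcodes with any UMI of 10 basal, immune and haemoglobin genes were left out of both groups, a choice made after seeing the data. Krt5 and Krt14 were named after their values were seen.

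Immune and stromal markers that passed the test were lower, but the calls of several lists depended on the barcodes and mice used. Over all genes 8.22% were lower, the share to set beside each marker list below. The rule allowed at most 1 UMI of C1qa, C1qb, Col3a1 and Cdh5 in both groups, and Foxi1/Atp6v1b1 cells had more UMIs per cell. The rule itself thus allowed them a smaller share of these UMIs. Its part in the counts of the marker lists was not tested. Of 11 macrophage markers 9 were lower and 0 higher (median -1.25), and their summed level was 224 to 306 CPM over 12 genes in Foxi1/Atp6v1b1 cells, against 353 to 792 CPM in zero-UMI epithelial cells. Lyz2, lysozyme, was lowest at -1.75 (edgeR adjusted p = 0.000297) and Cd68 highest at -0.11 (0.727). Endothelial markers were lower in 8 of 8 (median -1.60), from Pecam1 at -0.65 (edgeR adjusted p = 0.0457; 0.116 without mouse 1 and 0.343 without mouse 2) to Emcn at -2.06 (0.00137), with a summed level of 12.02 to 30.6 CPM, against 29.0 to 58.0 CPM. With 3 epithelial UMIs required in both groups, edgeR called 0 of the 8 endothelial markers (median -0.85), with 4 lower at an unadjusted p under 0.05, and with thinned barcodes 2 of 7 were lower. Of 8 fibroblast markers 4 were lower (median -0.91; Dcn lowest at -1.58 with edgeR adjusted p = 0.00534 and 0.547 without mouse 3, Pdgfra highest at 0.39 with 0.593), with a summed level of 31.1 to 97.7 CPM, against 101 to 246 CPM. The number lower was 2 of 7 without mouse 3, 2 with DESeq2 and 1 of 5 with thinned barcodes.

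Of 6 mural cell markers 2 were lower (median -1.49; Higd1b lowest at -1.88 with edgeR adjusted p = 0.0101, then Ndufa4l2, named after its values were seen, at -1.83 with 0.0379 and 0.309 without mouse 3, Kcnj8 highest at 0.04 with 0.963). Their summed level was 47.2, 6.41 and 12.9 CPM in Foxi1/Atp6v1b1 cells of mice 1, 2 and 3, against 18.8, 29.6 and 36.5 CPM in zero-UMI epithelial cells, so mouse 1 went the other way. Without mouse 1, 4 of the 6 were lower, and without mouse 3, 1 was. Of 7 T and NK cell markers 4 were lower (median -1.58; Nkg7 lowest at -2.11 with edgeR adjusted p = 0.00141, Ccl5 highest at -0.67 with 0.101), with a summed level of 17.7 to 20.3 CPM, against 36.0 to 50.2 CPM. With 3 epithelial UMIs required 1 of 4 was lower, and with thinned barcodes edgeR called 0 of 4, also 0 at an unadjusted p under 0.05. B cell markers were lower in 3 of 3 (median -2.05; Ighm lowest at -2.35 with edgeR adjusted p = 0.0149 and 0.0712 without mouse 3, Jchain highest at -1.82 with 0.0265 and 0.104 without mouse 1). Their summed level was 11.6, 45.5 and 1.68 CPM in Foxi1/Atp6v1b1 cells of mice 1, 2 and 3, against 7.07, 84.7 and 69.1 CPM, again with mouse 1 the other way. DESeq2 called 0 of the B cell markers, with 1 lower at an unadjusted p under 0.05 and 1 without an adjusted p, and edgeR called 1 of 3 without mouse 1. With 3 epithelial UMIs required, Igkc was the 1 B cell marker that could be tested, and its direction was reversed (log2 fold change 2.84, edgeR adjusted p = 0.0138). Igkc was named after its value was seen. Of 4 tuft cell markers 1 was lower (median -0.66; Alox5ap lowest at -1.20 with edgeR adjusted p = 0.00246), with 5.11 to 16.0 CPM, against 13.5 to 21.9 CPM. Beside 8.22% lower over all genes, 1 of 4 is too few for a result about that list. Of the neuroendocrine markers 0 passed the count filter, with 0.337 to 1.18 CPM, against 0.311 to 1.29 CPM.

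Haemoglobin genes were lower with all barcodes used, and concentrated in a few of them. Of 5 red blood cell markers 4 were lower (median -2.22), and Alas2 was highest at 0.08 without passing (edgeR adjusted p = 0.938). DESeq2 called 0 of the 5, with 4 lower at an unadjusted p under 0.05 and 1 without an adjusted p, and edgeR without mouse 1 called 0, also with 4 at an unadjusted p under 0.05. With barcodes of at least 300 genes and under 15% mitochondrial UMIs, edgeR called 0 of the 5 (median -0.28), and 0 at an unadjusted p under 0.05. Their summed level was 20.7, 222 and 16.0 CPM in Foxi1/Atp6v1b1 cells of mice 1, 2 and 3, against 159, 321 and 666 CPM in zero-UMI epithelial cells. Hba-a1 had a log2 fold change of -2.59 (edgeR adjusted p = 0.0379; 0.17 without mouse 1), and the 10 cells with the most held 94.0% of its UMIs in Foxi1/Atp6v1b1 cells, against 77.5% in zero-UMI epithelial cells. Hbb-bs and Hbb-bt had log2 fold changes of -2.52 and -2.22 (edgeR adjusted p = 0.0293 and 0.0286; 0.149 and 0.125 without mouse 1). Without mouse 2 the log2 fold changes were -5.64, -5.03 and -5.83 for Hba-a1, Hbb-bs and Hbb-bt, and without mouse 3 they were -1.0, -1.02 and -0.85. With 3 epithelial UMIs required in both groups, Hbb-bs and Hbb-bt had log2 fold changes of 0.16 and 1.11 and were not called (adjusted p = 0.924 and 0.283), and that of Hba-a1 was -0.03 (0.991). The other genes of the 10 lowest were Gm5886 at -2.45 (edgeR adjusted p = 0.000152; 0.081 without mouse 1 and 0.294 without the 8% of barcodes with the most UMIs), the leukocyte surface gene Cd52 at -1.78 (0.00021), the secretoglobin gene Scgb1b27 at -1.73 (6.61e-07) and the MHC class II gene H2-Ab1 at -1.68 (2.61e-05).

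The part that RNA of other cells had in the differences was not tested. The differences were also measured in fewer barcodes. With 0 UMIs of Krt5, Krt17, Acta2, Myl9, Cd74, Lyz2 and 4 haemoglobin genes required in both groups, a choice made after seeing the data, 780 genes were higher and 967 lower, of which 704 and 886 were shared with the counts above. The same 3 ionocyte regulators and Atp6v1a were then higher, with log2 fold changes within 1.5 times those above, 9 of 17 milk genes were higher, 5 of 17 Notch genes were higher and 18 of 23 proliferation genes were lower. This choice removes barcodes by 10 genes of basal, immune and red blood cells, so counts of those lists after it follow from the choice and are not given. It did not remove markers of other cells: 6 of 8 endothelial, 4 of 6 T and NK cell, 3 of 8 fibroblast and 2 of 4 mural markers were lower after it. H2-Ab1, which lies outside the 10 genes but is made by the same immune cells as Cd74, then had a log2 fold change of -0.07 (adjusted p = 0.858).

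**Figure D4:**
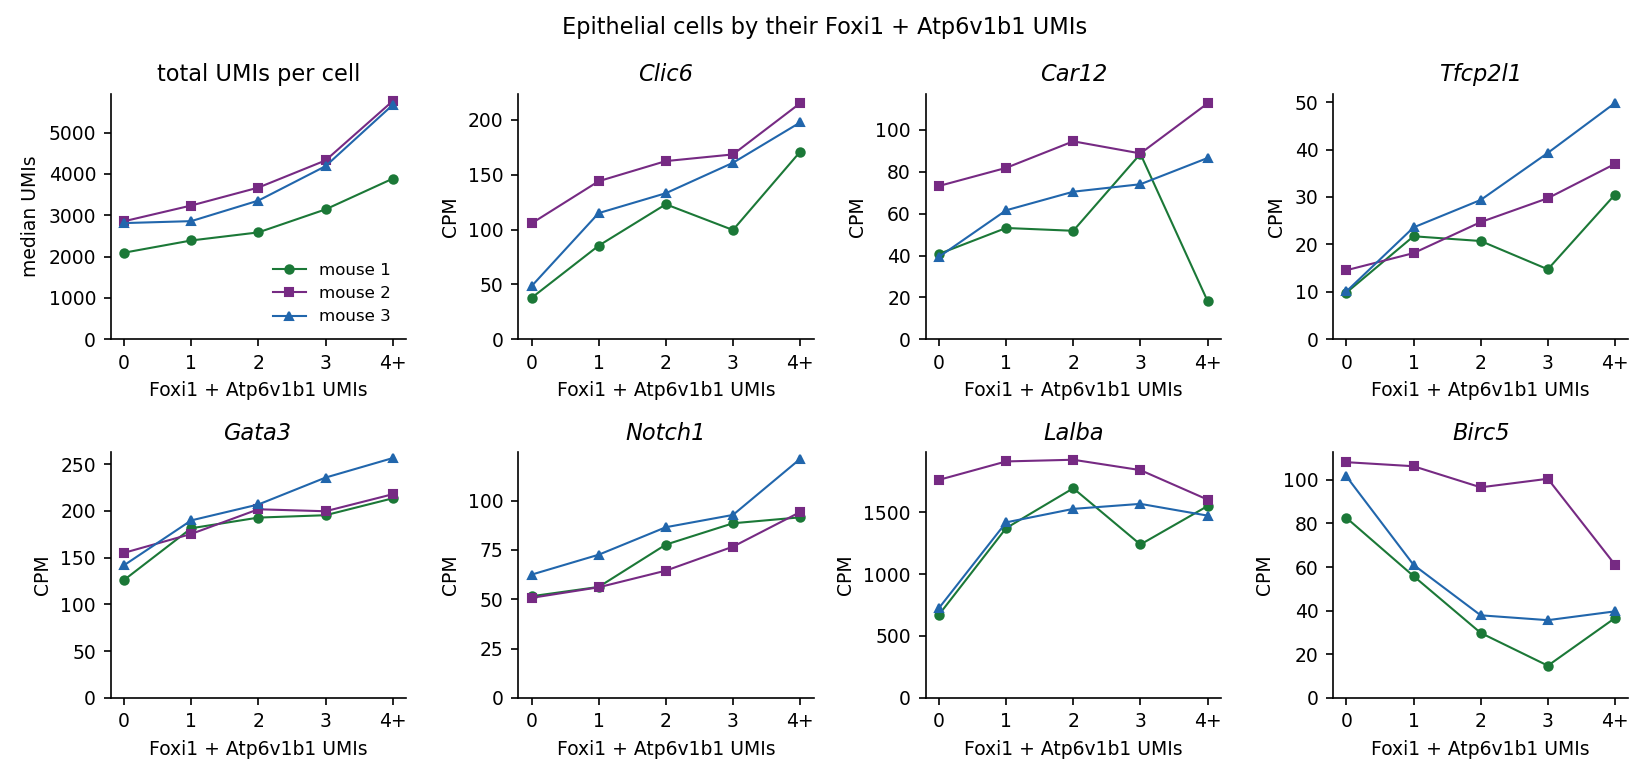
Median total UMIs per cell and level of 7 genes in epithelial cells with 0, 1, 2, 3 and 4 or more UMIs of Foxi1 and Atp6v1b1 together, 1 line per mouse. Levels are CPM of the summed cells. Clic6 is lowest at 0 UMIs and highest at 4 or more in every mouse, as is the depth of the cells, and Birc5 is highest at 0 UMIs in every mouse.

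The threshold of 2 UMIs cut through a gradual change. Clic6 stood at 63.9 ± 36.5 CPM (SD, n = 3 mice) in cells with 0 UMIs, 115 ± 29.4 at 1 UMI, just outside the rule, 140 ± 20.4 at 2 UMIs, just inside it, 143 ± 37.8 at 3 UMIs and 194 ± 22.3 at 4 or more. Tfcp2l1 stood at 11.5 ± 2.65, 21.2 ± 2.75, 24.9 ± 4.33, 27.9 ± 12.4 and 39.1 ± 9.82 CPM from 0 to 4 or more UMIs. Notch1 stood at 54.9 ± 6.58, 61.6 ± 9.49, 76.2 ± 11.1, 86.0 ± 8.34 and 102 ± 16.4 CPM. Birc5 ran the other way, at 97.4 ± 13.3, 74.4 ± 27.7, 54.7 ± 36.5, 50.3 ± 44.7 and 45.8 ± 13.3 CPM. Depth moved with these steps, with a median of 2095, 2390.5, 2586, 3142 and 3884.5 UMIs per cell in mouse 1, and its part was not tested here. There were 2712 cells at 2 UMIs, 1282 at 3 and 1318 at 4 or more. These values are a description, since the steps are those of the rule.

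The cells differed among themselves by which gene they held. Cells with Foxi1 only stood below the other kinds in several genes that the rule did not use. Tfcp2l1 was 17.1 ± 7.46 CPM (SD, n = 3 mice) in cells with Foxi1 only, 29.9 ± 14.8 in cells with Atp6v1b1 only and 32.8 ± 4.36 in cells with both. Lipa was 71.7 ± 19.1 CPM in cells with Foxi1 only, 128 ± 27.0 in cells with Atp6v1b1 only and 116 ± 17.4 in cells with both, lowest with Foxi1 only in each mouse. Clic6 was 112 ± 22.2, 163 ± 29.9 and 162 ± 31.5 CPM in the same order, and Atp6v1a 60.8 ± 10.1, 85.2 ± 19.5 and 85.3 ± 13.5 CPM, both also lowest with Foxi1 only in each mouse. Birc5 was 78.1 ± 53.8, 41.4 ± 32.2 and 45.7 ± 26.2 CPM, highest with Foxi1 only in each mouse. Lalba and the Notch target gene Hey1 differed less, at 1449 ± 222, 1681 ± 179 and 1661 ± 98.1 CPM for Lalba and 75.7 ± 11.6, 85.0 ± 20.2 and 80.6 ± 29.2 CPM for Hey1. No test was made between these kinds, whose numbers were 88, 105 and 182 cells in mouse 1.

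In epithelial barcodes chosen by 1 gene alone the same genes could be read side by side, though both contrasts share cells and mice. Tfcp2l1 had a log2 fold change of 0.67 (edgeR adjusted p = 0.00259) in barcodes chosen by Foxi1 and 1.21 (6.05e-05) in those chosen by Atp6v1b1. Clic6 had 0.72 and 1.06, Lipa 0.64 and 1.06, and Cck 0.72 and 1.40. Kit had 0.17 (edgeR adjusted p = 0.329) with Foxi1 and 0.62 (0.00162) with Atp6v1b1, and Atp6v1a had 0.23 (0.0961) and 0.46 (0.00084). The difference between the contrasts was not tested.

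The tdTomato reporter, which marks cells that descend from a cell with K14Cre activity, stood at 2637, 1889 and 2955 CPM in Foxi1/Atp6v1b1 cells of mice 1, 2 and 3, against 1907, 1607 and 1906 CPM in zero-UMI epithelial cells. It was higher in 3 of 3 mice, with a log2 fold change of 0.38 (SE 0.07, edgeR adjusted p = 0.00804), and the groups overlapped through mouse 2. A reporter UMI was found in 98.5% of Foxi1/Atp6v1b1 cells and 94.5% of zero-UMI epithelial cells, which had fewer UMIs per cell. The test covered the RNA level only. Shares of barcodes with a reporter UMI do not show which cells were labelled, and a difference in descent was not tested. Without mouse 1 the adjusted p was 0.093, without mouse 3 it was 0.17, and with thinned barcodes the log2 fold change was 0.21 with an adjusted p of 0.297.

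Tumours 3 and 4 came from 2 glands of mouse 3 and differed in some of the genes within Foxi1/Atp6v1b1 cells. Of 35 genes compared, 11 had exact 95% Poisson intervals that lay apart, 7 higher in the thoracic tumour 3 and 4 higher in the inguinal tumour 4. The 35 were picked for this report and the share over all genes was not measured, so the count is no result about the glands. Such intervals treat each UMI as independent and are too narrow where UMIs cluster in cells. For 4930469K13Rik 1 cell held 22 of 216 UMIs in tumour 3 and 1 cell held 20 of 85 in tumour 4. Cck stood at 116 CPM (105 to 128) in tumour 3 and 76.5 CPM (69.3 to 84.2) in tumour 4. 4930469K13Rik stood at 61.9 CPM (53.9 to 70.7) in tumour 3 and 15.7 CPM (12.5 to 19.4) in tumour 4. Dll1 stood at 6.02 CPM (3.72 to 9.19) in tumour 3 and 16.6 CPM (13.3 to 20.4) in tumour 4. With 1 library of each gland there is no replicate check of these differences.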

How the data were processed

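The deposited matrices give, for each barcode, the raw count of UMIs of every gene; per the submitters' processing notes, FastQC and Cell Ranger 2.2.0 were used with the mm10 or GRCm38 build, and what filtered the barcodes is not given in the sources used here. The count table lists 55472 gene entries, among them the tdTomato reporter. All barcodes were used. Counts were summed per mouse and group of cells, with tumours 3 and 4 summed as mouse 3, and tested with edgeR 4.0.16 (R 4.3.3) by the quasi-likelihood F-test, after TMM scaling and a filterByExpr filter on low counts. The mouse was a block because both groups come from the same animals. Benjamini-Hochberg adjustment ran over 14435 genes and calls were made at 0.05; 9 genes of the rule and 3 label markers received no test. The fit of Foxi1/Atp6v1b1 cells against zero-UMI epithelial cells was tried on simulated data with 1 common spread for all genes. It called 88.5% of changes with a log2 size of 1 and 51% of those with a log2 size of 0.5, with 2 false calls. A gene that did not pass may thus still differ by such an amount. CPM are UMIs per 1000000 UMIs of the summed cells, without TMM scaling. The adjusted p-values rest on how much the difference between the groups within a mouse varied over the 3 mice. The test estimates this spread for each gene with help from the other genes. It is thus not the spread of that gene alone. The cells, gene lists and markers were chosen with earlier results of these data known.

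Genes named in the text were the 15 highest and 10 lowest log2 fold changes among called genes that changed the same way in every mouse, had a mean of at least 20 CPM in the higher group and were not used by the rule. To these came the highest and lowest gene of each list, regulators, pump and acid-base genes, and genes said to be named after their values were seen; some genes that this rule names are not reported here. One respiratory chain gene of the lists has no row in the gene table, and 386 of 387 list genes were found. Gene positions are those of GRCm38. No doublet caller was run; an alternative left out the 8% of barcodes with the most UMIs. Thinning drew 1500 UMIs from each barcode with a fixed seed. Other alternatives were DESeq2 1.42.0, other scaling, no filter on low counts, no mouse block, tumours as samples, other thresholds for the cells and leaving out each mouse. A further one limited zero-UMI epithelial cells to the depth of the Foxi1/Atp6v1b1 cells. Intervals cover counting error only. Figures were drawn with matplotlib 3.10.9.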

Additional observations from a re-analysis of the deposited data

Results flagged for a closer look

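Of 40 gene and group combinations over the 4 tumours, 6 had a tumour far from the other tumours by Dixon's test, which chance flags in about 1 of 20. All lay in Foxi1/Atp6v1b1 cells, and the 4 tumours come from 3 mice. Csn2 stood at 116.8 CPM and Csn1s1 at 230.3 CPM in tumour 1, and the 10 cells with the most UMIs held 86.3% of the Csn2 UMIs over all tumours. Gm5886 stood at 33.13 CPM in tumour 1, and the cell with the most UMIs held 48.2% of its UMIs. Hba-a1 stood at 91.67 CPM, Hbb-bs at 108.6 CPM and Hbb-bt at 16.07 CPM in tumour 2, and the cell with the most UMIs held 49.3%, 46.8% and 49.8% of their UMIs over all tumours.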

How the results depend on the processing

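Against 897 genes higher and 1185 lower, DESeq2 called 342 and 520, thinned barcodes 172 and 233, the fit without the 8% of barcodes with the most UMIs 437 and 608, and no filter on low counts 1794 lower. Leaving out 1 mouse gave 190 to 1393 higher and 280 to 1854 lower. Without the replicate block that pairs both groups of cells of a mouse, edgeR called 0 and 0 genes, with 1587 at an unadjusted p under 0.05; the cause was not tested. Of list genes, 48 higher and 85 lower, leaving out 1 mouse gave 16 to 75 and 45 to 100, no replicate block 0 and 0, thinning 30 and 36, and DESeq2 47 lower. Atp6v1b1 in cells chosen by Foxi1 had a log2 fold change of 0.7804 with DESeq2 (adjusted p = 0.295), 0.6349 without the replicate block (1.0) and 0.5686 to 1.07 with 1 mouse left out. Foxi1 in cells chosen by Atp6v1b1 had 0.7426 without the replicate block (0.683) and 0.5972 to 1.179. The reporter had 0.3942 without the block (0.521), 0.2092 with thinned barcodes (0.297) and 0.2787 to 0.4532 with 1 mouse left out. Of 99 genes followed over these alternatives (1614 values), 1296 values kept direction and side of the threshold, 259 lost the call, 25 gained it and 34 changed direction. Calls were lost for 38 genes without mouse 1, 1 without mouse 2, 31 without mouse 3, 22 with DESeq2, 27 with thinned barcodes and 78 without the replicate block. The 34 were in 12 genes. With 3 epithelial UMIs required, Hbb-bs had 0.163, Hbb-bt 1.11, Cd68 0.1905 and Krt14 0.008724. Without barcodes with basal, immune or haemoglobin UMIs, Krt14 had 0.4697, Cd68 0.257, Kcnj8 -0.06356 and Prox1 -0.1659. With thinned barcodes, Prox1 had -0.1028 and Cox4i1 -0.01427. Without the replicate block, Prox1 had -0.2274, Cd68 0.02011, Alas2 -0.005107 and mt-Nd4l -0.03171. Without the deepest 8%, Prox1 had -0.08718, Atp6v0e2 0.001321, Kcnj8 -0.09721 and Atp6v1b2 -0.008923. With no UMI of other-type genes allowed, Prox1 had -0.122 and Atp6v1b2 -0.02219. With 3 UMIs of the choosing genes required, Alas2 had -0.1484 and mt-Nd4l -0.01791, and with both genes required Kcnj8 had -0.01125 and mt-Nd4l -0.09079. With no filter Prox1 had -0.007681, and with 4 tumours as samples Hspb1 had 0.002415. With 1 mouse left out, Prox1 ranged from -0.03188 to 0.08043, Atp6v0e2 from -0.5424 to 0.18, Cd68 from -0.2939 to 0.2295, Kcnj8 from -0.5394 to 0.741, Alas2 from -0.2243 to 0.3428, mt-Nd4l from -0.09652 to 0.2813 and Hspb1 from -0.2068 to 0.1489. Depth limits genes with few UMIs, and the mean share of 18.7% was 6.49% with thinned barcodes.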
